A study of Arabidopsis thaliana with 12 samples.

Results

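The loci described here are 59 Arabidopsis thaliana loci, of 27313 in the deposited tables, whose transcripts were lower after the actin drug latrunculin B (latB) in leaves of the mutant sid2 and were not lower in the wild type (WT). They were chosen by their own measured values. For each genotype the response L was the log2 ratio of mean TPM with latB to mean TPM with DMSO, with 1 TPM added to both means, where TPM, the Salmon abundance unit, is a level scaled for transcript length and depth. A locus was a member when L in sid2 was -0.75 or less, its highest sid2 library with latB lay below its lowest sid2 library with DMSO, and L in WT was 0 or more. The drop in sid2 and the absence of a drop in WT are therefore how the loci were found, and their values are given below as a description.

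Fully expanded rosette leaves, 3 on each plant, were infiltrated by syringe, and RNA was taken after 24 h. The plants were 4 weeks old, raised at 22 °C under days of 10 h and nights of 14 h. The 4 groups of 3 libraries were sid2 given 1 µM latB, sid2 given 0.01% DMSO, WT Col-0 given 1 µM latB, and WT Col-0 given 0.01% DMSO. Every group was infiltrated, and leaves without infiltration were not analysed here. The sid2 allele is not given in the sources used here. Whether each library came from its own plants is not stated in the labels, and p-values therefore describe the scatter among these libraries, which may be technical.

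Latrunculin B binds actin monomers and so shortens actin filaments. The gene mutated in sid2 encodes isochorismate synthase, which begins the main route to salicylic acid, a hormone of defence against biotrophic pathogens. Several of the loci belong to the response to abscisic acid, the hormone of water deficit, in which bZIP factors such as ABF3 bind a promoter element called ABRE, or to the loading of sucrose into phloem, in which SWEET proteins release sucrose from phloem parenchyma and SUC2 takes it up into companion cells.

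Library totals ran from 14506962 to 22449387 estimated reads. The targeted gene ICS1 (AT1G74710) averaged 148 ± 22.0 TPM in sid2 with latB, 156 ± 1.14 TPM in sid2 with DMSO, 79.5 ± 18 TPM in WT with latB and 9.68 ± 0.683 TPM in WT with DMSO (SD, n = 3 each). A mutant transcript can still be counted, so this level does not check the lesion, and each genotype below is the labelled one. On the third principal component of log2 CPM, sid2 DMSO replicate 3 lay at 11.4, apart from sid2 DMSO replicates 1 and 2 at -43 and -54.7. The membership count and the members' genotype calls averaged over treatments are also given below without sid2 DMSO replicate 3. So are the counts of abscisic acid and phloem list genes that fell in sid2. The other group comparisons include this library. The leaf identity of the samples was visible in the mesophyll markers in every library. In WT they summed to 29400 to 38800 TPM with latB and 61400 to 66500 TPM with DMSO. In sid2 the sum was 55800 to 64400 TPM with latB and 58900 to 65400 TPM with DMSO.

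The responses of the 59 loci in sid2 ran from -2.80 to the limit of -0.75, with a median L of -1.03. Those in WT ran from 0.00 to 3.60, with a median L of 0.59. Median levels of the 59 loci were 2.52 TPM in sid2 with latB, 6.36 TPM in sid2 with DMSO, 8.19 TPM in WT with latB and 3.72 TPM in WT with DMSO. Most were scarce transcripts: 23 averaged 10 TPM or more in sid2 with DMSO, and 14 averaged under 1 TPM in sid2 with latB. A rule on sid2 alone would have kept 124 loci, of which 65 had L below 0 in WT. The condition in WT removed these 65. It was met by 72.8% of all 27313 loci, a share that counts loci without any signal, whose L is 0. Of the 16390 loci with a mean of 1 TPM or more, 67.9% met it.

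**Figure D1:**
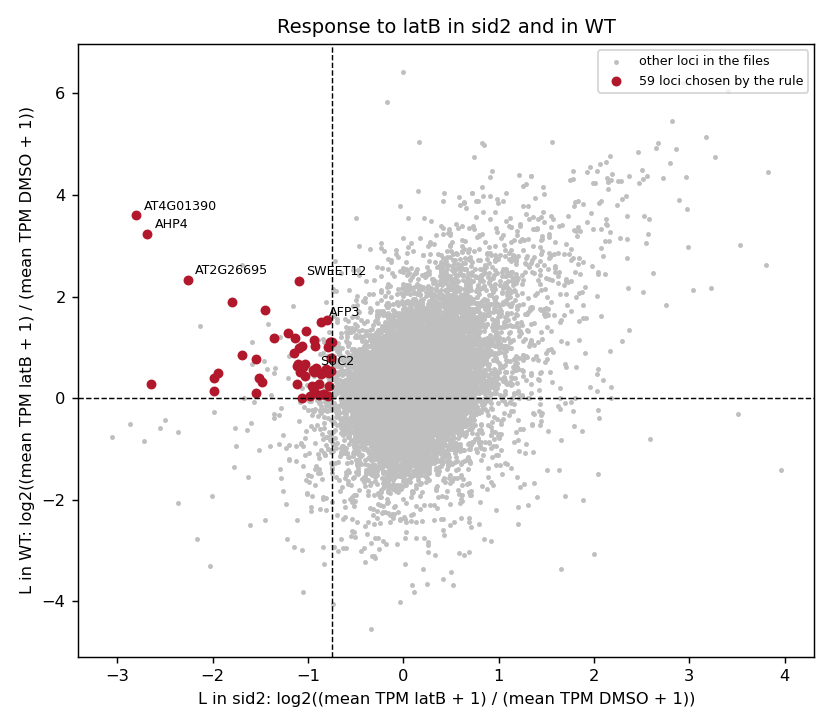
Each point is a locus, with its response L in sid2 on the horizontal axis and in WT on the vertical axis, both as log2 ratios of mean TPM plus 1. Dashed lines mark the limits of -0.75 and 0, and the 59 chosen loci (red) fill the upper left, with AT4G01390 farthest out at -2.80 in sid2 and 3.60 in WT, while grey points in the same corner had overlapping sid2 libraries.

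Membership near the limits was decided by small differences. At the sid2 limit AT2G04170 (L of -0.7508), AT1G25141 (-0.7578) and AT5G52545 (-0.7579) were just inside. AT4G21910 (-0.7496), AT2G32340 (-0.7472) and MDP40 (-0.7468) were just outside. At the WT limit AT1G11700 (L of 0.003), PMEI1 (0.0391) and GATA9 (0.0501) were just inside, and AT2G22420 (-0.0077), AT4G14270 (-0.0318) and AT3G46320 (-0.04) just outside.

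In sid2 the libraries of the 59 loci were separated by rule, as were those of 5.93% of all 18149 tested loci in the same direction. In WT separation was no condition. For 28 of the 59 loci every WT library with latB lay above every WT library with DMSO, and for 31 the WT libraries overlapped. Of the 55 members that passed the filter on low counts, 28 were separated in this direction (50.9%), against 44.7% of all tested loci (16.4% were separated the other way, and 0 members), and since the rule used this contrast nothing is read from the 2 shares. By edgeR calls after TMM scaling of the counts (trimmed mean of M values), 15 of the 55 were higher in WT with latB and 0 lower, against 22.1% and 22.7% of all tested loci. In sid2, on the contrast that chose them, 30 of the 55 were called lower with latB and 0 higher. Of all tested loci 1.21% were called lower there and 3.53% higher. COPT2, DI21, HVA22E, BBX29 and AT1G79520 are among the members not called in sid2. TPM within WT leaned upward with latB: of the 16390 loci with a mean of 1 TPM or more, 67.9% had L of 0 or more. With TMM scaling the median log2 change in WT was 0.63 for the 55 members and -0.01 for all tested loci, and 11 of the 55 then lay below 0. With library size alone the median of all tested loci in WT moved by 0.34 (log2).

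The genotypes also differed within each treatment, in libraries that the rule used, so these counts describe the members and are no independent test of them. All 59 loci had a higher mean in sid2 with DMSO than in WT with DMSO, and for 39 the libraries did not overlap (37 of the 55 tested, against 11.0% of all tested loci). Under latB, 55 of the 59 had a lower mean in sid2 than in WT, and for 40 the libraries did not overlap (39 of the 55 tested, against 41.1% of all tested loci). By edgeR calls on the same libraries, 28 of the 55 tested members were higher in sid2 than in WT under DMSO and 0 lower (4.46% and 6.56% of all tested loci), and under latB 0 were higher and 23 lower (22.1% and 21.2%). The response in sid2 minus that in WT was called below 0 for 42 of the 55 and above 0 for 0 (10.7% and 13.4% of all tested loci), and nothing is read from these counts. The group with the highest mean was sid2 with DMSO for 38 loci and WT with latB for 21. The lowest mean was in sid2 with latB for 38 loci, in WT with DMSO for 20 and in WT with latB for 1. The pattern differed between loci: AT1G11700, for example, averaged 13.5 TPM in sid2 with latB, 29.4 TPM in sid2 with DMSO and 11.9 TPM in both WT groups.

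**Figure D2:**
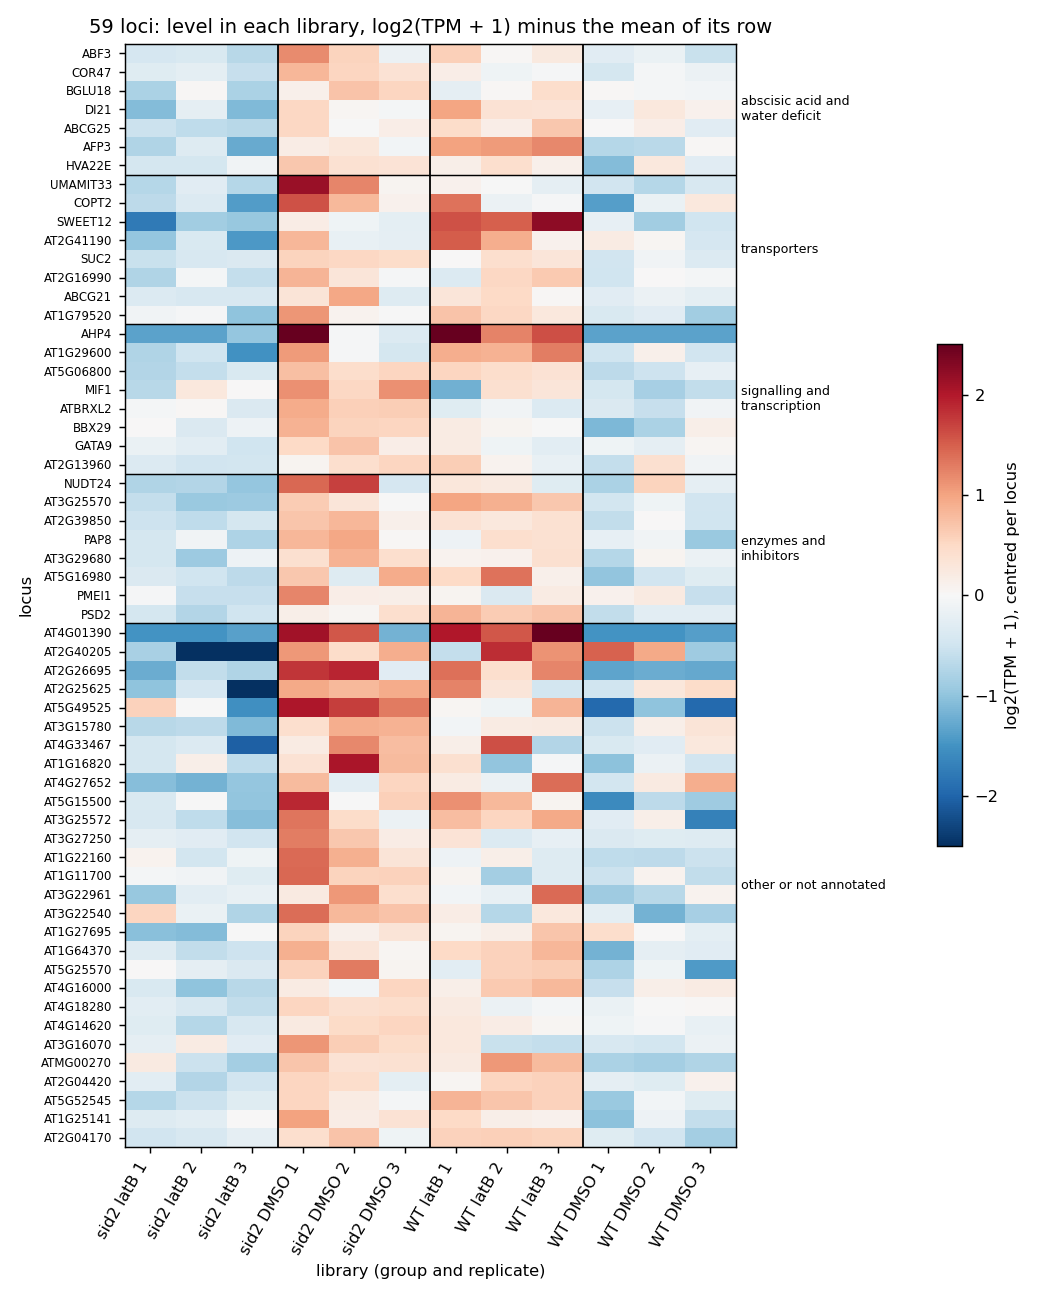
Rows are the 59 loci ordered by role, columns the 12 libraries, and colour is log2(TPM + 1) minus the mean of the row, with values beyond the ends of the colour scale drawn in the end colours. The sid2 libraries with latB are blue in most rows, the sid2 libraries with DMSO red, and sid2 DMSO replicate 3 is paler than replicate 1 in many rows.

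Because the promoter element of the ABF factors bears on the first group of loci, the 250 bases before the annotated gene start were read for the 57 loci with an entry in the RefSeq TAIR10.1 annotation. The core ABRE, written ACGTGNC and searched on both strands, was in 10 of the 57 (17.5%), against 8.57% of 27443 promoters of the same length. It was in 4 of the 7 loci with a role in abscisic acid or water deficit, namely DI21, ABCG25, AFP3 and HVA22E, and not in this window of ABF3, COR47 or BGLU18. The other 6 matches were before SUC2, PSD2, AT1G22160, AT4G33467, AT4G14620 and AT5G15500. The 4 promoters are shown 5′ to 3′ on the strand of the gene, with the ABRE core in capitals on whichever strand it was read, so that the site and its spacing can be seen. They lie at chr4:9028012-9028261 (plus strand, DI21), chr1:27088249-27088498 (minus strand, ABCG25), chr3:11384146-11384395 (minus strand, AFP3) and chr5:20634619-20634868 (minus strand, HVA22E) of TAIR10.1.
DI21: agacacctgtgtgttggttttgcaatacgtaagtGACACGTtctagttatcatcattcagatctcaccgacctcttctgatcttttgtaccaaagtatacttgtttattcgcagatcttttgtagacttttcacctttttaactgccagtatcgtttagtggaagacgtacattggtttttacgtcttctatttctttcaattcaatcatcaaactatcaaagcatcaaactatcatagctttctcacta
ABCG25: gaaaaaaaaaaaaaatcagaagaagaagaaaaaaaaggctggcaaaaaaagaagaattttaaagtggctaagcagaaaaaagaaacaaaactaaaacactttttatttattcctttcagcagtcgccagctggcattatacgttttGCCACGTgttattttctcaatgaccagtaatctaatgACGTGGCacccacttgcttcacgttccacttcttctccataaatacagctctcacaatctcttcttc
AFP3: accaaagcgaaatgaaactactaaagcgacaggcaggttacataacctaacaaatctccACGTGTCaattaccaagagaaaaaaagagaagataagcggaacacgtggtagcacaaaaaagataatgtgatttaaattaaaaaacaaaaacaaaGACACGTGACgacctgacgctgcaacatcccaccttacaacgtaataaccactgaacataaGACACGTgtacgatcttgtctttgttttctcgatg
HVA22E: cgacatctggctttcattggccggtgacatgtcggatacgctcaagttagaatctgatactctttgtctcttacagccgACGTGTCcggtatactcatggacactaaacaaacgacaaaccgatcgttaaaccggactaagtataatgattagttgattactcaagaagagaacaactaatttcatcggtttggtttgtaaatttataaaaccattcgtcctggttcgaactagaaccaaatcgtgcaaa

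AFP3 held 4 matches, whose first bases lay at -191, -96, -93 and -35 from the gene start, and the matches at -96 and -93 overlap on opposite strands. ABCG25 held 2, at -104 and -67, DI21 had 1 at -216 and HVA22E 1 at -171. The G-box CACGTG, which can overlap an ABRE core, was before 5 of the 57 loci (8.77%) and 6.49% of all promoters. The other motifs searched on both strands were W-box TTGACN in 20 loci (35.1%, against 44.8% of all promoters), as-1 core TGACG in 14 (24.6%, against 18.6%), DRE/CRT core CCGAC in 8 (14.0%, against 12%), telo-box AAACCCTA in 4 (7.02%, against 4.49%), I-box GATAAG in 3 (5.26%, against 12.3%), site II element TGGGCC in 2 (3.51%, against 13.7%), the evening element in 1 (1.75%, against 2.36%) and GCC-box GCCGCC in 0 (against 1.87%). These are descriptions of letters in a window, and no difference of shares was tested.

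Of the 7 loci with a role in abscisic acid or water deficit, L in sid2 ran from -1.11 to -0.78 and L in WT from 0.14 to 1.5. ABF3 (AT4G34000), a bZIP factor that binds ABRE, had 40.7, 41.4 and 33.4 TPM in sid2 with latB, against 124, 80.7 and 49.4 TPM in sid2 with DMSO. WT leaves had 83.0, 55.9 and 64.9 TPM of ABF3 with latB, against 44.5, 48.7 and 36.9 TPM with DMSO. The sid2 DMSO libraries of ABF3 spanned a wide range, and the WT groups did not overlap in TPM. After TMM scaling the WT log2 change of ABF3 was 0.27 and was not called. AFP3 (AT3G29575) belongs to a family of proteins that bind ABI5-type bZIP factors and dampen abscisic acid signalling. It had 18.2, 24.9 and 12.5 TPM in sid2 with latB, against 35.6, 38.3 and 29.6 TPM in sid2 with DMSO. In WT it had 63.6, 66.8 and 73.2 TPM with latB, against 18.7, 19.3 and 31.7 TPM with DMSO. AFP3 thus had its highest level in WT with latB, above every library of the other 3 groups.

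COR47 (AT1G20440), a dehydrin that accumulates in cold and drought, had 66.1, 69.6 and 54.7 TPM in sid2 with latB, against 147, 119 and 105 TPM in sid2 with DMSO. WT leaves had 92.6, 76.0 and 80.9 TPM with latB, against 60.1, 78.9 and 74.3 TPM with DMSO, and these 2 groups overlapped. All 3 sid2 DMSO libraries of COR47 stood above the other 9. HVA22E (AT5G50720), a homologue of the abscisic acid-induced HVA22 of barley, averaged 11 ± 1.72 TPM in sid2 with latB, 19.6 ± 2.76 TPM in sid2 with DMSO, 16.4 ± 1.97 TPM in WT with latB and 11.3 ± 5.43 TPM in WT with DMSO (SD, n = 3 each). BGLU18 (AT1G52400), a beta-glucosidase that frees abscisic acid from its glucose ester, averaged 26.2 ± 9.57 and 51.2 ± 10.3 TPM in sid2 with latB and with DMSO, and 39.2 ± 9.59 and 35.5 ± 1.33 TPM in WT with latB and with DMSO. ABCG25 (AT1G71960), an exporter of abscisic acid, was scarcer, with 1.52 ± 0.138 TPM in sid2 with latB, 3.58 ± 0.869 TPM in sid2 with DMSO, 4.26 ± 0.912 TPM in WT with latB and 2.80 ± 0.600 TPM in WT with DMSO. DI21 (AT4G15910), named for its induction by drought, averaged 1.78 ± 1.05 TPM in sid2 with latB, 4.33 ± 1.18 TPM in sid2 with DMSO, 6.02 ± 1.89 TPM in WT with latB and 3.90 ± 0.792 TPM in WT with DMSO.

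Only ABF3 and COR47 of these 7 are on the list of 30 genes of abscisic acid, cold and water deficit that was searched beside them. In sid2, 8 of the 30 fell with latB and 0 rose (quasi-likelihood F-test of edgeR, Benjamini-Hochberg adjusted over 18149 loci), where 1.21% of all tested loci fell and 3.53% rose. The median log2 change of the 30 was -0.62 in sid2. In WT 8 of them rose and 6 fell, with a median of -0.09, where 22.1% of all tested loci rose and 22.7% fell. The sid2 count of 8 became 4 without sid2 latB replicate 1 or 3, and 5 without sid2 DMSO replicate 1, and it was 9 without sid2 DMSO replicate 3. Besides ABF3 and COR47, which the rule chose on this contrast, the genes that fell in sid2 were KIN1, KIN2, COR15A, COR15B, ERD14 and P5CS1, named here after their values were seen. ERD14, another dehydrin, had 298 ± 40.4 TPM in sid2 with latB against 398 ± 51.6 TPM in sid2 with DMSO (log2 change -0.68, adjusted p = 0.0132), and 459 ± 48.8 TPM in WT with latB against 282 ± 24.8 TPM in WT with DMSO (log2 change 0.46, adjusted p = 0.0129; edgeR, both). KIN2, a cold-induced gene, fell in both genotypes, by 1.60 in sid2 and by 0.62 in WT on the log2 scale (edgeR adjusted p = 0.000549 and 0.011). So did COR15B, a chloroplast protein of cold acclimation, by 2.09 in sid2 and by 1.19 in WT on the log2 scale (edgeR adjusted p = 0.00178 and 0.00448), and P5CS1, an enzyme of proline synthesis, by 1.65 and by 0.90 (edgeR adjusted p = 0.0179 and 0.0496).

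**Figure D3:**
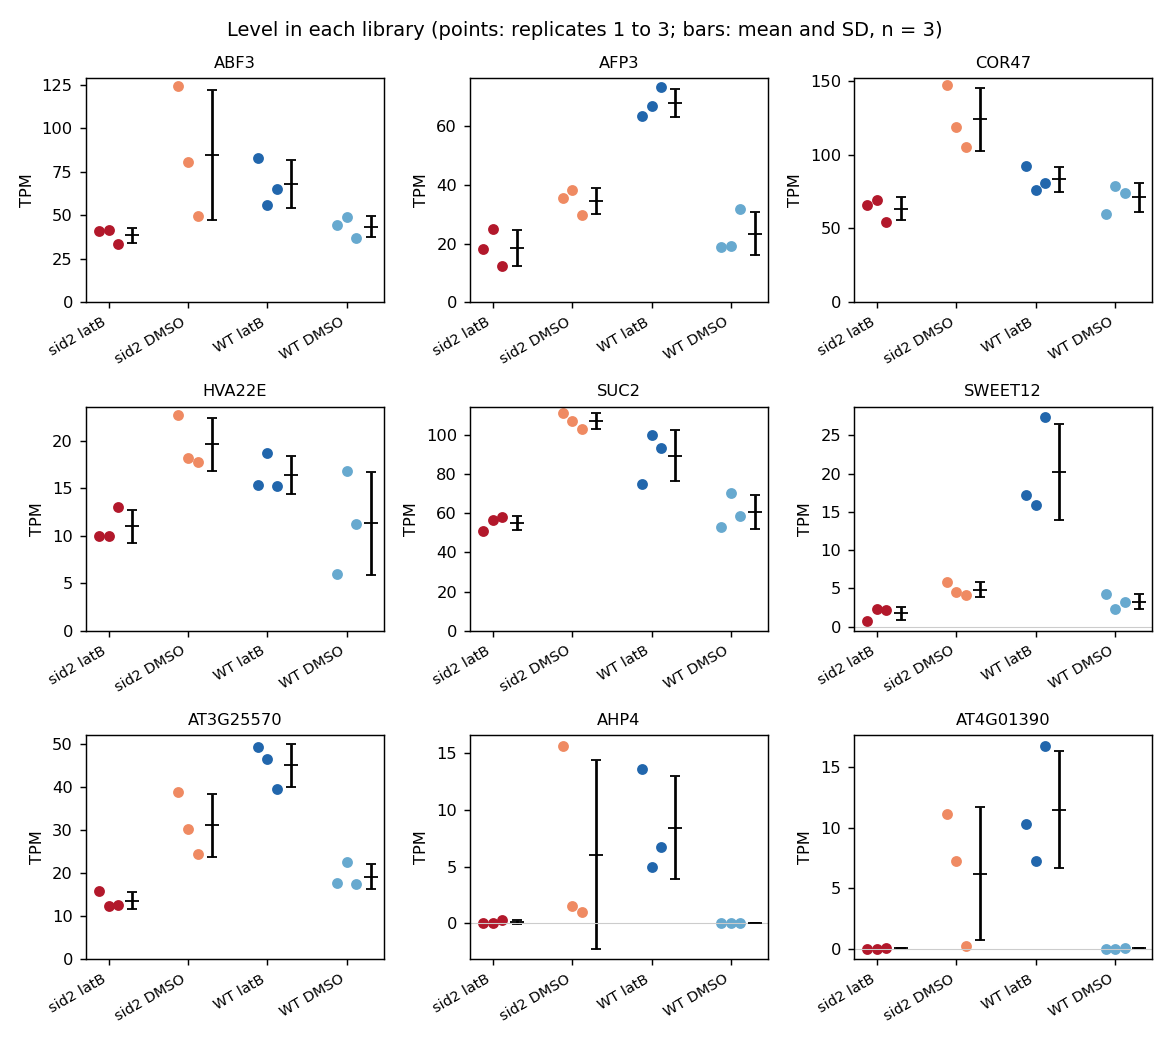
TPM in each library (points, replicates 1 to 3 from left to right) with the mean and SD of the group (bars, n = 3) for 9 of the 59 loci, each panel on its own linear axis. SUC2 shows tight sid2 DMSO libraries above its sid2 latB libraries. Those of COR47 also lie above its sid2 latB libraries but spread wider, from 105 to 147 TPM. For AHP4 and AT4G01390 the sid2 DMSO mean rests on 1 or 2 of the 3 libraries.

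Transporters made up 8 of the 59 loci, with L in sid2 between -1.94 and -0.79 and L in WT between 0.49 and 2.31. SUC2 (AT1G22710), the sucrose-proton symporter of companion cells, had 50.7, 56.5 and 57.8 TPM in sid2 with latB, against 111, 107 and 103 TPM in sid2 with DMSO. WT leaves had 74.9, 100 and 93.0 TPM with latB, against 53.1, 70.1 and 58.7 TPM with DMSO. The sid2 DMSO libraries of SUC2 lay within 103 to 111 TPM, and neither pair of treatment groups overlapped in TPM. After TMM scaling the WT log2 change of SUC2 was 0.16 and was not called. SWEET12 (AT5G23660), a sucrose exporter, had 0.774, 2.31 and 2.11 TPM in sid2 with latB, against 5.87, 4.56 and 4.10 TPM in sid2 with DMSO. In WT it had 17.2, 15.9 and 27.4 TPM with latB, against 4.25, 2.30 and 3.27 TPM with DMSO. The WT mean of SWEET12 was 6.17-fold higher with latB, and the sid2 mean 2.80-fold lower.

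SUC2 and SWEET12 are 2 of 17 genes on a list of phloem and companion cell markers, 14 of which were tested. In sid2, 5 of the 14 fell with latB and 0 rose, where 1.21% of all tested loci fell and 3.53% rose, and the median log2 change was -0.10. Besides SUC2 and SWEET12, which the rule chose on this contrast, these were, named after their values were seen, the proton pump AHA3 (log2 change -0.73, adjusted p = 0.0159), the lectin PP2-A1 (-0.59, adjusted p = 0.0269) and the transcription factor APL (-0.54, adjusted p = 0.0272), all by edgeR. The other 9 did not pass, and 6 of them had log2 changes above 0: SEOB (0.05), NPF2.13 (0.05), SWEET11 (0.12), SEOA (0.15), OPS (0.44) and UMAMIT18 (0.46). Leaving out a library gave counts of 1 to 5: 1 without sid2 latB replicate 1 or sid2 DMSO replicate 1, 2 without sid2 latB replicate 2 or 3, 3 without sid2 DMSO replicate 2, and 5 without sid2 DMSO replicate 3. Library size alone and limma gave 3 each. In WT 2 of the 14 rose and 1 fell, where 22.1% of all tested loci rose and 22.7% fell. After TMM scaling, which the summed TPM that follows does not use, the median log2 change of the 14 in WT was 0.2. The summed level of the 17 markers was 455 to 507 TPM in sid2 with latB, 597 to 642 TPM in sid2 with DMSO, 592 to 646 TPM in WT with latB and 335 to 491 TPM in WT with DMSO, and SULTR1;3 and NAC086 were under 0.1 TPM in every group. In these whole-leaf samples fewer cells of a type and less RNA per cell cannot be told apart, and the part of the phloem markers in the SUC2 and SWEET12 values was not tested. On the xylem, guard cell, epidermis and mesophyll lists 0 genes passed for latB against DMSO in sid2.

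The other transporters were UMAMIT33 (AT4G28040), of an amino acid transporter family, COPT2 (AT3G46900), a copper transporter of the plasma membrane, ABCG21 (AT3G25620), the cation efflux family locus AT1G79520, the amino acid transporter family locus AT2G41190 and the major facilitator locus AT2G16990. UMAMIT33 had 0, 0.355 and 0 TPM in sid2 with latB, against 6.34, 2.83 and 0.737 TPM in sid2 with DMSO. COPT2 had 1.38, 1.95 and 0.422 TPM in sid2 with latB, against 10.3, 5.58 and 3.05 TPM in sid2 with DMSO. Both were highest in sid2 DMSO replicate 1 and lowest of their group in replicate 3. AT1G79520, the most abundant of these 6, averaged 24.5 ± 8.42 TPM in sid2 with latB, 43.1 ± 20.5 TPM in sid2 with DMSO, 44.0 ± 6.80 TPM in WT with latB and 21.4 ± 4.64 TPM in WT with DMSO (SD, n = 3 each). Its longer model took 8.22% ± 1.85 of the locus in sid2 with latB, 12.4% ± 11.0 in sid2 with DMSO, 24.7% ± 17.7 in WT with latB and 39.2% ± 14.7 in WT with DMSO, shares that rest on how reads were divided between near-identical models.

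Signalling and transcription loci numbered 8, with L in sid2 between -2.69 and -0.78. AHP4 (AT3G16360), of the family of phosphotransfer proteins that relay cytokinin signals, had 0, 0 and 0.295 TPM in sid2 with latB, against 15.7, 1.5 and 0.994 TPM in sid2 with DMSO. In WT it had 13.6, 4.97 and 6.75 TPM with latB and was listed at 0 in all 3 DMSO libraries. The separation in sid2 was narrow apart from replicate 1, and that in WT was complete. AT1G29600, a CCCH zinc finger locus, had its highest mean in WT with latB, at 12.5 ± 2.32 TPM, beside 2.62 ± 1.2 TPM in sid2 with latB, 7.38 ± 4.79 TPM in sid2 with DMSO and 4.52 ± 1.45 TPM in WT with DMSO. BBX29 (AT5G54470), a B-box zinc finger protein, averaged 7.13 ± 1.05 TPM in sid2 with latB, 13.3 ± 1.94 TPM in sid2 with DMSO, 8.59 ± 0.713 TPM in WT with latB and 5.44 ± 3.10 TPM in WT with DMSO. The rest were the myb-like locus AT5G06800, the homeodomain-like locus AT2G13960, GATA9, the mini zinc finger MIF1, and ATBRXL2 of the BREVIS RADIX-like family, all with means of 4.41 TPM or less in every group.

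Among the 8 enzymes and inhibitors L in sid2 ran from -1.98 to -0.77, and for 5 of them the WT groups did not overlap. The subtilisin-like protease locus AT2G39850 had 27.3, 24.8 and 28.9 TPM in sid2 with latB, against 63.9, 70.9 and 43.1 TPM in sid2 with DMSO. In WT this locus had 50.8, 47.7 and 51.8 TPM with latB, against 25.4, 39.6 and 27.6 TPM with DMSO. AT3G25570 is annotated in the family of adenosylmethionine decarboxylase, an enzyme that feeds polyamine synthesis. It had 15.9, 12.4 and 12.6 TPM in sid2 with latB, against 38.9, 30.4 and 24.4 TPM in sid2 with DMSO, and in WT 49.3, 46.6 and 39.7 TPM with latB, against 17.7, 22.6 and 17.4 TPM with DMSO. For both loci no pair of treatment groups overlapped, and the levels with DMSO in sid2 and with latB in WT exceeded the levels of the other 2 groups in every library. PSD2 (AT5G57190), which makes phosphatidylethanolamine from phosphatidylserine, averaged 3.17 ± 0.443 TPM in sid2 with latB, 6.09 ± 0.975 TPM in sid2 with DMSO, 9.14 ± 0.757 TPM in WT with latB and 3.72 ± 0.660 TPM in WT with DMSO. NUDT24 (AT5G19470), a nudix hydrolase, had 6.10, 7.59 and 0.944 TPM in sid2 with DMSO, and 0.331 to 0.572 TPM in sid2 with latB. PAP8, an acid phosphatase, PMEI1, an inhibitor of pectin methylesterases, the acyltransferase family locus AT3G29680 and the dehydrogenase family locus AT5G16980 completed the group.

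The remaining 28 loci have an annotation by domain or none, and AT3G25572 and ATMG00270 have no entry in the reference table used for names. They include the lowest L in sid2 of all, that of the TRAF-like locus AT4G01390. AT4G01390 had 0, 0 and 0.101 TPM in sid2 with latB, against 11.1, 7.27 and 0.249 TPM in sid2 with DMSO. In WT it had 10.3, 7.29 and 16.8 TPM with latB, against 0, 0 and 0.0813 TPM with DMSO. Its transcripts were near absence in both low groups, with 2 estimated reads over the 3 libraries of each, and sid2 DMSO replicate 3 sat close to them. AT2G26695, with a Ran-binding type zinc finger, had 6.20, 10.2 and 9.11 TPM in sid2 with latB, against 57.9, 62.8 and 13.1 TPM in sid2 with DMSO, and in WT 43.1, 22.0 and 38.9 TPM with latB, against 5.88, 6.28 and 6.06 TPM with DMSO. The most abundant of the 59 was AT1G64370, annotated as filaggrin-like, with 315, 256 and 277 TPM in sid2 with latB, against 734, 489 and 409 TPM in sid2 with DMSO. In WT AT1G64370 had 556, 588 and 700 TPM with latB, against 173, 338 and 326 TPM with DMSO. Neither pair of groups overlapped for these 3 loci.

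AT4G16000, an uncharacterized locus, averaged 31.1 ± 6.68 TPM in sid2 with latB, 59.6 ± 12.7 TPM in sid2 with DMSO, 74.1 ± 16.8 TPM in WT with latB and 48.9 ± 13.4 TPM in WT with DMSO (SD, n = 3 each). AT3G15780, also uncharacterized, averaged 13.8 ± 2.51 TPM in sid2 with latB, 42.3 ± 7.62 TPM in sid2 with DMSO, 27.1 ± 3.01 TPM in WT with latB and 25.2 ± 7.62 TPM in WT with DMSO. The response of AT3G15780 in WT was thus close to 0 (L of 0.10), against -1.55 in sid2. AT2G25625 (L of -1.98 in sid2) and AT4G33467 (-1.54) each had a low replicate 3 in sid2 with latB, at 0.261 and 0.407 TPM, and their WT groups overlapped. The values of 4 loci rest on few reads, and these did not pass the filter on low counts: AT2G40205, AT1G16820, PMEI1 and AT3G16070. AT2G40205, of the ribosomal protein L41 family with a coding length of 78 bases, had 1, 0 and 0 estimated reads in sid2 with latB, against 4, 2 and 3 in sid2 with DMSO. It shares that coding length with 4 other loci of its family, between which reads can be divided with error.

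The 59 loci were short. Their median coding length was 672 bases (78 to 2328), against 1128 bases for the 21811 loci with any signal, and 8 of them (13.6%) were under 300 bases, against 4.45% of those loci. Length is tied to level and to the number of reads behind a TPM value, and no test was made. They were spread over the 5 nuclear chromosomes with 14, 10, 12, 10 and 11 loci, and 2 had no position in the annotation used. Of these 2, AT3G25572 is by its identifier on chromosome 3, and ATMG00270 is in the mitochondrial genome. Among the loci with a position, the closest pair, AT3G25570 and ABCG21 on chromosome 3, lay 26735 bases apart. The identifier of AT3G25572 places it next to AT3G25570, but without a position its distance was not measured. Whether these 2 loci are independent members was not tested.

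The 1 comparison that the rule did not set directly is that of sid2 with WT averaged over both treatments, since the rule compared treatments within a genotype. It uses the same 12 libraries and is no independent test of the members. For the 55 tested members it joins opposite differences. Their median log2 value of sid2 minus WT was 1.04 under DMSO and -0.95 under latB. Of the 55 tested members, 8 were higher in sid2 (14.5%) and 2 were lower (3.64%), by edgeR's quasi-likelihood F-test, Benjamini-Hochberg adjusted over all 18149 loci. Of all tested loci, 19.5% (3543) were higher and 17.7% (3214) lower, so the members were not called more often than other loci. Their median log2 difference was 0.15, with 37 above 0 and 18 below, beside 0.02 for all tested loci. The split depends on the scaling. With library size alone 4 members were higher and 7 lower (all loci 2118 and 5161), and with limma on TPM 8 were higher and 8 lower (all loci 2192 and 5006). The 8 higher members became 4 without sid2 latB replicate 1, sid2 DMSO replicate 1 or WT latB replicate 3, and 5 without sid2 latB replicate 2, WT latB replicate 2 or WT DMSO replicate 1 or 3. The 2 lower members became 6 without sid2 DMSO replicate 1 and 4 without WT latB replicate 3. Without sid2 DMSO replicate 3 the counts were 9 higher and 2 lower. The rule is not fully blind to this comparison: a locus must be detected in sid2 with DMSO but may be near 0 in WT, and little spread within sid2 favours membership.

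ATBRXL2 (AT3G14000), related to BREVIS RADIX, a regulator of root growth, was higher in sid2 by 1.03 ± 0.22 on the log2 scale (SE, edgeR adjusted p = 0.00244), with 2.35 ± 1.12 TPM over the sid2 libraries and 1.15 ± 0.274 TPM over the WT libraries. In 5 of 6 sid2 libraries ATBRXL2 lay above its highest WT library. Of 2 loci annotated by senescence-associated domains, AT1G22160 was higher by 0.89 ± 0.18 (SE, edgeR adjusted p = 0.0015) and AT1G11700 by 0.85 ± 0.20 (SE, edgeR adjusted p = 0.00397). Each had 3 of 6 sid2 libraries above all WT libraries, and all of these were DMSO libraries. AT5G49525, uncharacterized and scarce, was higher by 2.46 ± 0.64 (SE, edgeR adjusted p = 0.0083), again in 3 of 6 sid2 libraries above all WT libraries. For AT5G49525 sid2 minus WT was 5.23 under DMSO and -0.32 under latB (log2), with 3 estimated reads over the WT DMSO libraries. For ATBRXL2, AT1G22160 and AT1G11700 it was 1.64, 1.69 and 1.37 under DMSO, and 0.43, 0.10 and 0.34 under latB. Under latB edgeR called 0 of the 55 tested members higher in sid2.

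SWEET12 was lower in sid2 by 1.34 ± 0.25 on the log2 scale (SE, edgeR adjusted p = 0.000865). It averaged 3.29 ± 1.88 TPM over the sid2 libraries and 11.7 ± 10.1 TPM over the WT libraries, and 2 of 6 sid2 libraries lay below every WT library. AFP3 was lower by 0.54 ± 0.16 (SE, edgeR adjusted p = 0.0154), with 26.5 ± 9.98 TPM over the sid2 libraries and 45.6 ± 25.1 TPM over the WT libraries. The average joins opposite directions: sid2 minus WT was 0.62 under DMSO and -3.31 under latB for SWEET12, and 0.64 under DMSO and -1.73 under latB for AFP3 (log2). The calls of these 6 loci held when any 1 library was left out. Those of COR47 (0.30 ± 0.11 higher in sid2, edgeR adjusted p = 0.041), BBX29 (0.62 ± 0.21, 0.0306), AT3G27250 (0.61 ± 0.22, 0.0393) and AT3G22540 (1.72 ± 0.64, 0.0483) did not. Leaving out 1 library ended them in 8, 7, 8 and 10 of 12 cases in that order, with adjusted p between 0.056 and 0.188, and library size alone ended all 4 (adjusted p = 0.402, 0.113, 0.124 and 0.0697). COR47 kept its call without sid2 latB replicate 3, sid2 DMSO replicate 3, WT latB replicate 1 or WT DMSO replicate 2, and BBX29 without sid2 latB replicate 2, sid2 DMSO replicate 2 or 3, WT latB replicate 1 or WT DMSO replicate 3. AT3G27250 kept it without sid2 latB replicate 3, sid2 DMSO replicate 2 or 3, or WT latB replicate 1, and AT3G22540 without sid2 latB replicate 3 or WT DMSO replicate 1. Under DMSO sid2 minus WT was 0.87 for COR47, 1.36 for BBX29, 1.39 for AT3G27250 and 3.25 for AT3G22540 (log2). Under latB it was -0.27, -0.11, -0.18 and 0.19 in that order. SUC2 (0.23 ± 0.10 higher in sid2, edgeR adjusted p = 0.0845) and ABF3 (0.23 ± 0.18, 0.351) did not pass.

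**Figure D4:**
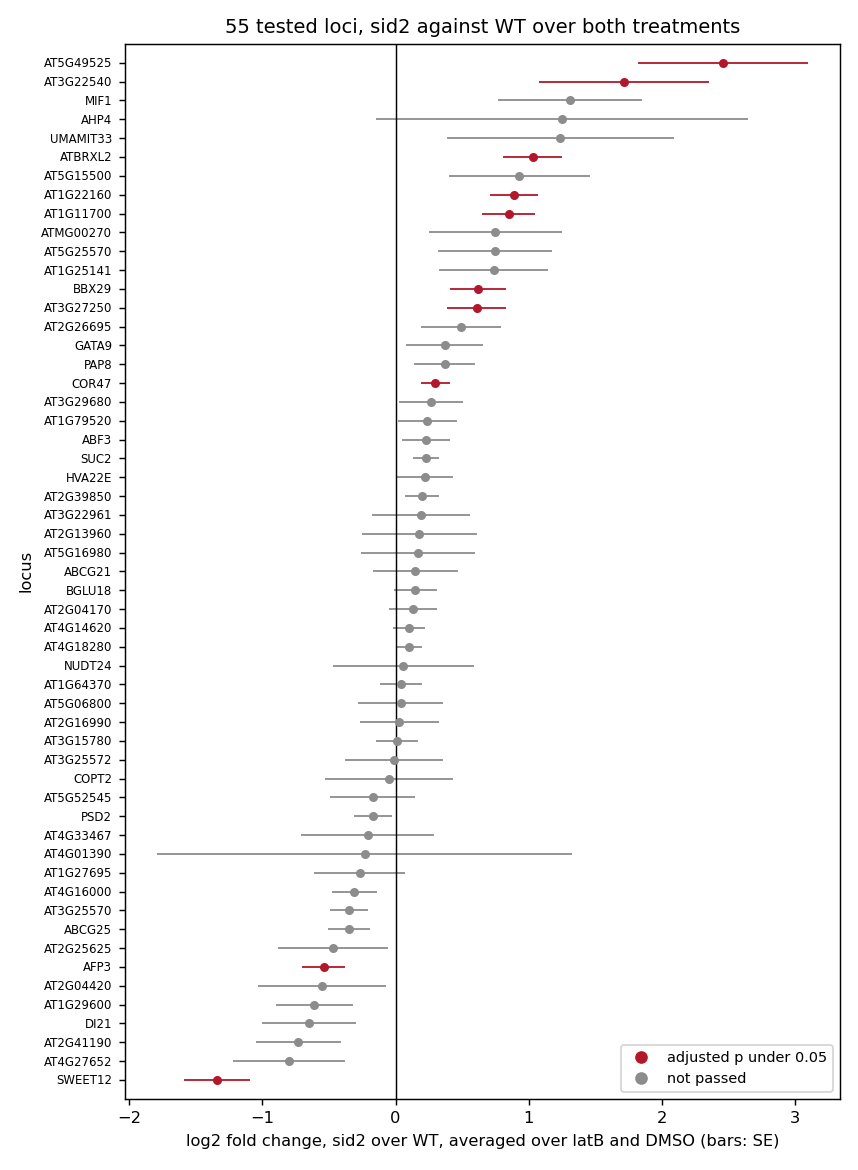
Points are log2 fold changes of sid2 over WT averaged over latB and DMSO for the 55 tested loci, with SE as bars, from the edgeR fit to 12 libraries. Red marks the 10 loci with an adjusted p under 0.05, from AT5G49525 at 2.46 to SWEET12 at -1.34.

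Which loci met the rule depended on single libraries. Leaving out sid2 DMSO replicate 3, which was the lowest library of its group for 35 of the 59 loci (it was the lowest for 33.0% of all loci of 1 TPM or more in that group), gave 141 loci, 56 of them among the 59. Leaving out sid2 DMSO replicate 1 gave 78 loci and kept 39 of the 59, and leaving out sid2 DMSO replicate 2 gave 113. Without 1 of the sid2 latB libraries the counts were 91, 101 and 93, and without a WT library they ran from 57 to 64. A condition of no overlap is easier to meet with 2 libraries than with 3. Of the 59 loci, 24 met the rule in all 12 of these settings.

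**Figure D5:**
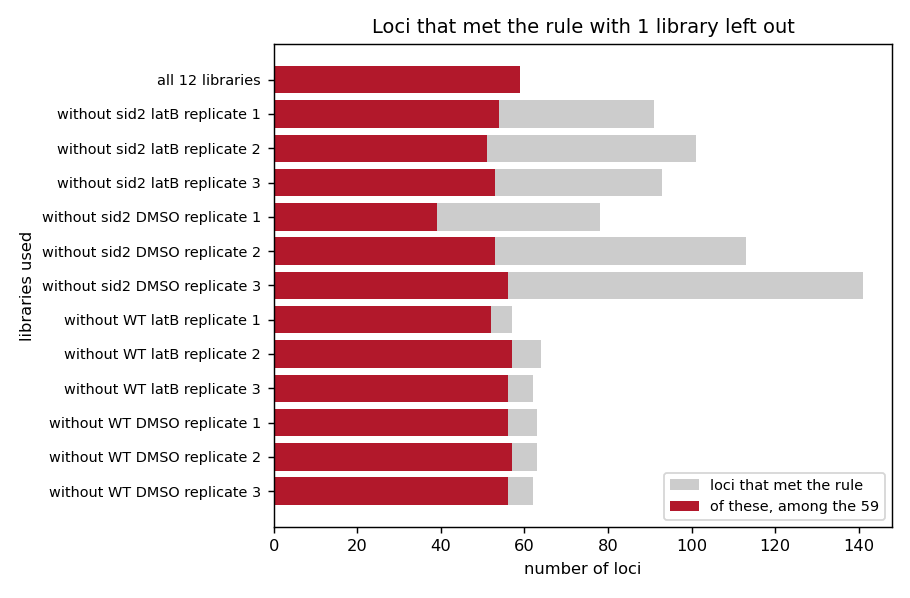
Bars give the number of loci that met the rule with all 12 libraries or with the named library left out, and the red part those among the 59. The number was highest without sid2 DMSO replicate 3 (141), and the fewest of the 59 were kept without sid2 DMSO replicate 1 (39).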

How the data were processed

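Leaf RNA from 4 groups of 3 libraries was analysed, grouped by the genotype and treatment labels. Per the submitters' processing notes, the authors used Trimmomatic, Salmon 1.3.0 and the TAIR10 build. Each deposited table has, per the file headers, an estimated count and a TPM value for each of 32875 transcripts. Nearly all lengths (99.99%) were multiples of 3, so they are coding lengths. The labels name no batch and no pairing.

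Both units were summed to 27313 loci. TPM served the membership rule and the levels. The estimated counts were rounded and tested with the edgeR 4.0.16 quasi-likelihood test (R 4.3.3) after filterByExpr and TMM scaling, in 1 model of the 12 libraries with a mean per group and an adjusted p threshold of 0.05. A standard error is the absolute log2 fold change over the square root of F. The script was tested on simulated data. Alternatives were RLE scaling, library size alone, no filter, DESeq2 1.42.0, limma 3.58.1 on log2(TPM + 1) for loci of at least 1 TPM in 3 libraries, leaving out each library, and other settings of the rule. Library totals limit the scarce loci most.

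The 59 members, their roles and the 26 lists with 386 entries were chosen with earlier results of these data known. Named members are those with the lowest L in sid2, the highest level, the highest L in WT, the largest genotype differences past the threshold, those nearest the limits and those on a list. Further members were named, after their values were seen, to complete each role group. Names, positions and promoters came from RefSeq TAIR10.1, in which 96.3% of 32140 shared transcripts had the same coding length as in the tables.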

Additional observations from a re-analysis of the deposited data

Results flagged for a closer look

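For 28 of the 59 loci the libraries of the 2 genotypes were separated in opposite directions in TPM: all 3 sid2 latB libraries lay below all 3 sid2 DMSO libraries, and all 3 WT latB libraries lay above all 3 WT DMSO libraries. SUC2, SWEET12, AFP3, ABF3 and AT3G25570 are among them. Separation in sid2 was a condition of the rule, which also kept only loci with L of 0 or more in WT, and 44.7% of all tested loci were separated upward in WT. With TMM scaling, edgeR called 15 of the 55 tested members higher with latB in WT, and SUC2 (log2 change 0.16) and ABF3 (0.27) were not called. The response in sid2 minus that in WT was called below 0 for 42 of the 55, on the values that chose them, so that the difference between the genotypes was not tested independently of the rule.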

How the results depend on the processing

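The number of loci that met the rule was 131 with a pseudocount of 0.1 TPM, 24 with 5 TPM, 31 with a limit of -1, 84 with TMM-scaled CPM (39 of them among the 59) and 57 with at least 10 reads in sid2 with DMSO. Leaving out 1 library gave 57 to 141. For sid2 against WT averaged over treatments, the count of members higher in sid2 was 8, and 4 with library size alone, and it ran from 4 to 9 with 1 library left out. The count lower in sid2 was 2, and 7 with library size alone, 8 with limma, and 2 to 6 with 1 library left out. Over all tested loci the counts were 3543 higher and 3214 lower, and 2118 and 5161 with library size alone and 2192 and 5006 with limma. Library size alone moved the median of this comparison by -0.18 (log2). The abscisic acid list gave 8 genes lower with latB in sid2, and 4 to 9 with 1 library left out. The phloem list gave 5, and 3 with library size alone or limma, and 1 to 5 with 1 library left out. Of 391 values for 23 named members, 342 stayed on the same side of the threshold, and 41 lost and 8 gained a call. With a call in either setting, 0 changed sign. Changes of sign between values that were not called were not counted. The cause of these changes was not tested. COR47 had adjusted p of 0.402 with library size alone and 0.164 with limma. No paired analysis was possible because the labels give the groups no shared replicate numbers. Loci with few reads, such as the 4 that were not tested, are limited by depth. Settings other than those planned (the list counts, the counts over all loci and the minimum of reads) were added after seeing the data.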
